A study of Mus musculus with 6 samples.

Results

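The genes described here encode enzymes of mitochondrial fuel oxidation that lie outside fatty acid oxidation and the respiratory chain. They were chosen by name as 47 members of the deposited gene table, out of 51888 features, and all 47 were found there. By role, 14 belong to the tricarboxylic acid (TCA) cycle, 2 to reactions that add to or draw on its oxaloacetate, 9 to the entry of pyruvate, 19 to the breakdown of the branched-chain amino acids leucine, isoleucine and valine, and 3 to ketone body oxidation. All 47 passed the filter on low counts and were among the 14302 genes tested.

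Whole hearts were compared between 3 control mice and 3 Elac2 knockout mice on a C57BL/6 background. Controls are labelled L/L and Elac2 +/+, and knockouts L/L, cre and Elac2 -/-. Both groups thus carry the loxP-flanked Elac2 exon, and knockouts also carry cre driven by the muscle creatine kinase promoter, so the presence of cre and the loss of Elac2 cannot be told apart and cells without cre keep the exon. Elac2 encodes RNase Z, which trims the 3′ ends of tRNA precursors. The labels used here give neither age nor sex, nor whether mice of a group shared a litter, so p-values measure only the spread between these mice.

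The TCA cycle oxidises acetyl-CoA to carbon dioxide in the mitochondrial matrix and hands its electrons to the respiratory chain. Pyruvate enters through a carrier and the pyruvate dehydrogenase complex, which kinases switch off and phosphatases switch on by acting on its E1 subunit. Branched-chain amino acids are transaminated and then decarboxylated by a complex of the same build, under its own kinase and phosphatase, and their carbon reaches acetyl-CoA, acetoacetate or succinyl-CoA. The heart is known as a tissue that oxidises all of these fuels, including ketone bodies made by the liver.

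Libraries held 9850100 to 14461110 counts, and the 47 genes together took 79480 to 137712 counts per library. Mitochondrial-encoded features took 49.3 to 61.1% of counts in controls and 33.3 to 36.7% in knockouts. The check of the labels was Elac2 itself, at 15.0, 14.0 and 13.0 CPM in controls and 5.36, 5.63 and 6.52 CPM in knockouts, a log2 ratio of -1.27 (SE 0.15, adjusted p = 2.12e-04). CPM, the usual counts scaled to library size, here use a library size corrected by TMM, which sets the bulk of genes equal between libraries. A log2 ratio of knockout over control is therefore relative to that bulk. With library size alone, all genes tested had a median log2 ratio that moved from -0.01 to 0.68, and that of the 47 genes from -0.68 to 0.01. Their distance below all genes was -0.66 with TMM and -0.67 with library size alone. The choice of scaling moves the log2 ratios of all genes by nearly the same amount, so this distance is kept by construction.

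Most of the 47 genes fell in the knockout hearts. With edgeR at an adjusted p under 0.05, 34 were called lower, 1 higher, and 12 neither. Of all genes tested, 17.8% were called lower and 18.7% higher. With library size alone, 7 of the 47 were called lower and 7 higher, where 3.86% of all genes were lower and 56.6% higher. The groups did not overlap for 37 members that were lower and 1 that was higher, where 24.5% of all genes did not overlap with the knockouts lower and 26.2% with the knockouts higher. As a share of counts at nuclear genes, which does not depend on TMM, the 47 genes took 1.90, 1.87 and 1.59% in controls and 1.03, 1.28 and 1.29% in knockouts. Because whole hearts were measured, fewer cells of a type and less RNA per cell cannot be told apart.

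**Figure D1:**
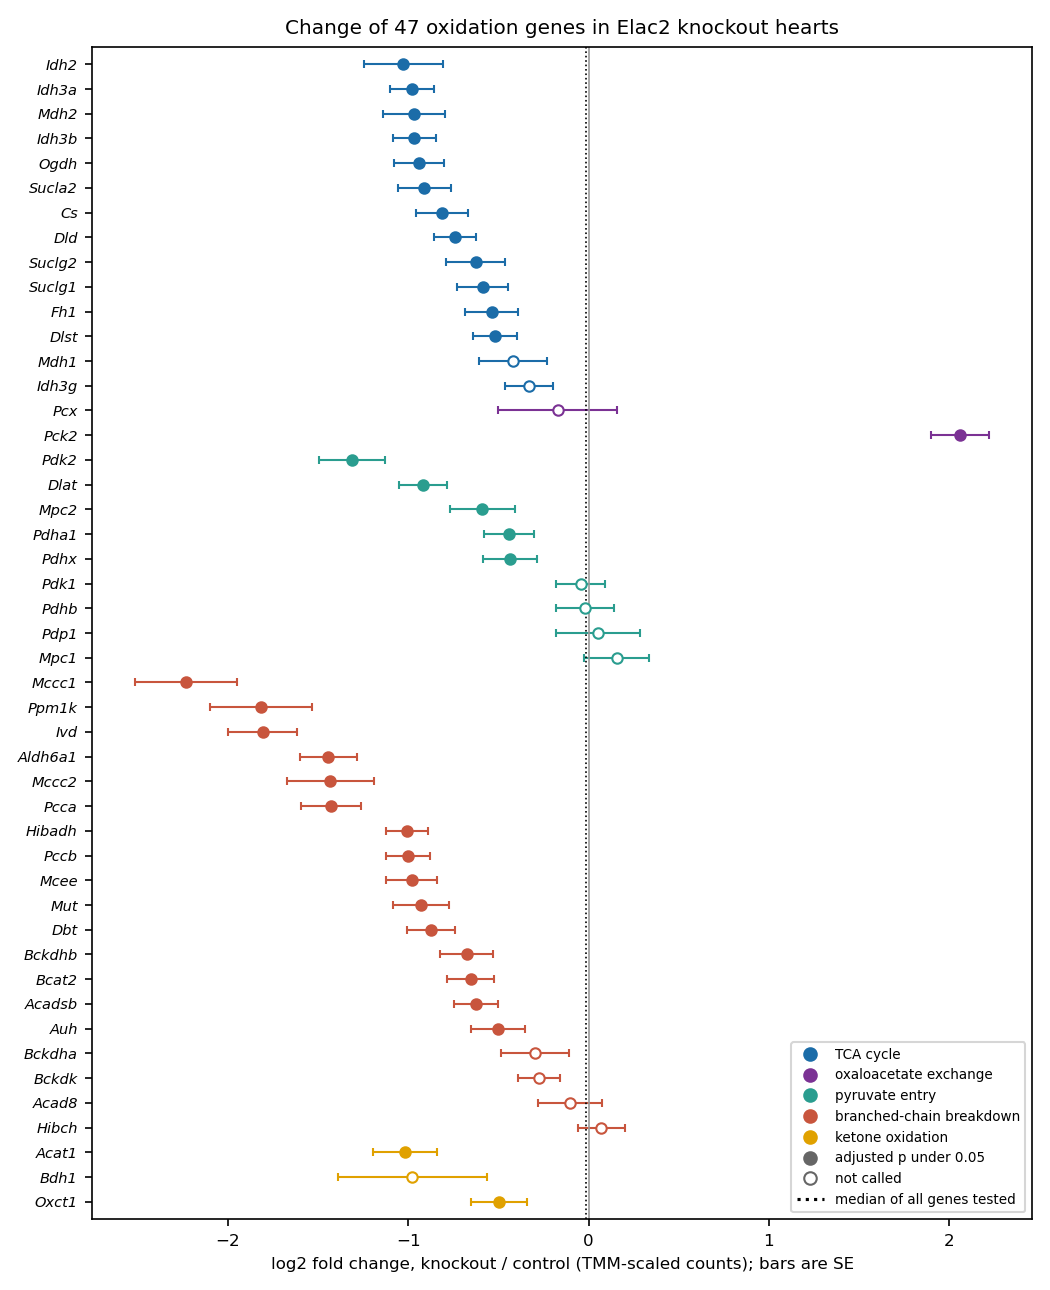
Log2 ratio of each of the 47 genes, knockout against control, on the x axis, with genes on the y axis grouped and coloured by role. Points are estimates from 3 mice per group, bars are SE, filled points have an adjusted p under 0.05 and the dotted line is the median of all genes tested (-0.01). Of the filled points 34 lie to the left and only Pck2, at 2.06, lies to the right.

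In the TCA cycle 12 of 14 genes were lower and 0 higher, with values from -1.03 to -0.33 and a median log2 ratio of -0.78. The shares over all genes tested were 17.8% lower and 18.7% higher. The knockouts lay below the controls without overlap for all 14, where 24.5% of all genes tested did so. Idh3a, the catalytic subunit of the NAD-dependent isocitrate dehydrogenase, was at 278, 307 and 329.9 CPM in controls 1 to 3 and at 152, 161 and 152 CPM in knockouts 1 to 3. Its log2 ratio was -0.98 (SE 0.12, adjusted p = 2.85e-04). The knockout libraries were close to one another and each lay well below the lowest control.

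A second subunit of that enzyme, Idh3b, was at 307, 304 and 284 CPM in controls and at 138, 160.1 and 160.1 CPM in knockouts, with a log2 ratio of -0.97 (SE 0.12, adjusted p = 2.98e-04). The remaining subunit, Idh3g, was at 156, 172 and 154 CPM in controls and at 109, 143 and 132 CPM in knockouts, and was not called, with a log2 ratio of -0.33 (SE 0.13, adjusted p = 0.0769). The ratio of Idh3g to Idh3a counts, which needs no scaling, was 0.562, 0.561 and 0.467 in controls and 0.717, 0.888 and 0.872 in knockouts. This pair was chosen after its values were seen, and the difference between the subunits was not tested. Idh2, the NADP-dependent enzyme for the same substrate, went from 711 ± 72.7 to 349 ± 105 CPM (SD, n = 3 each), with knockout 1 lowest at 230.4 CPM, and its log2 ratio was -1.03 (SE 0.22, adjusted p = 0.00528).

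The 2-oxoglutarate dehydrogenase complex follows in the cycle. Its decarboxylating subunit Ogdh was at 1174, 1252 and 1201 CPM in controls and at 576, 653 and 661 CPM in knockouts, a log2 ratio of -0.94 (SE 0.14, adjusted p = 8.05e-04). The core subunit Dlst was at 390.4, 377 and 349 CPM in controls and at 242, 272 and 265 CPM in knockouts and fell by 0.52 (SE 0.12, adjusted p = 0.00888). Both fell without overlap of the groups. Dld, the lipoamide dehydrogenase that this complex shares with those for pyruvate and branched-chain acids, was at 233, 230.1 and 246 CPM in controls and at 132, 153 and 139.8 CPM in knockouts and fell by 0.74 (SE 0.12, adjusted p = 0.00105).

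Succinyl-CoA synthetase has a common alpha subunit, Suclg1, and 2 alternative beta subunits, Sucla2 for the ATP-forming and Suclg2 for the GTP-forming enzyme. Sucla2 was at 369, 345 and 293 CPM in controls and at 152, 197 and 187 CPM in knockouts, a log2 ratio of -0.91 (SE 0.15, adjusted p = 0.00122). Suclg2 was at 65.4, 53.9 and 49.2 CPM in controls and at 29.7, 44.3 and 35.3 CPM in knockouts, a log2 ratio of -0.63 (SE 0.16, adjusted p = 0.0145), which lost its call without control 1 (adjusted p = 0.0592). The ratio of Sucla2 to Suclg2 counts was 5.64, 6.398 and 5.94 in controls and 5.14, 4.44 and 5.28 in knockouts, so it was lower in each knockout than in each control. A processed pseudogene, Gm15163, shares 1302 bases at 98.9% identity with Suclg2 and held 17.6% as many counts, so some reads of Suclg2 are of uncertain origin. Suclg1 fell by 0.59 (SE 0.14, adjusted p = 0.00895).

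Citrate synthase, Cs, which starts the cycle, went from 768 ± 49.5 to 437 ± 52.4 CPM, a log2 ratio of -0.81 (SE 0.15, adjusted p = 0.00212). Mdh2, the mitochondrial malate dehydrogenase, went from 329 ± 44.6 to 168 ± 35.3 CPM, a log2 ratio of -0.97 (SE 0.17, adjusted p = 0.00205). Mdh1, the cytosolic enzyme of the malate-aspartate shuttle, had a smaller value that was not called, -0.42 (SE 0.19, adjusted p = 0.107). The fumarase gene Fh1 fell by 0.54 (SE 0.15, adjusted p = 0.0174), which lost its call without control 1 or control 2 (adjusted p up to 0.0691).

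Of the genes that exchange oxaloacetate with other pools, 1 of 2 was called, where 36.5% of all genes tested were called in either direction. Pck2, the mitochondrial phosphoenolpyruvate carboxykinase, which makes phosphoenolpyruvate from oxaloacetate, was the 1 member called higher. It was at 5.72, 6.56 and 5.23 CPM in controls 1 to 3 and at 24.1, 27.9 and 20.9 CPM in knockouts 1 to 3. Its log2 ratio was 2.06 (SE 0.16, adjusted p = 2.39e-05), and each knockout was far above the highest control. The call held in each of the 15 alternative settings tried, with log2 ratios from 1.95 to 2.75. Per kilobase of exon it was the least abundant of the 47 genes in controls, at 0.747 ± 0.0861, and it reached 3.11 ± 0.45 in knockouts (CPM per kilobase of exon, SD, n = 3 each).

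Its promoter is shown because Pck2 alone was called higher and because its window alone held the searched amino acid response element. This is the motif TGATGNAA, the kind of site bound by ATF4 and its partners, searched on both strands. The windows run from 250 bases before to 50 after the annotated start, are taken from RefSeq (GRCm38.p6) and were found for 42 of the 47 genes, all but Idh3a, Pdp1, Dbt, Mut and Acat1. Capitals mark the match, on the reverse strand, whose first base in this reading is at -103 from the start.
Pck2, chr14:55540016-55540315, plus strand: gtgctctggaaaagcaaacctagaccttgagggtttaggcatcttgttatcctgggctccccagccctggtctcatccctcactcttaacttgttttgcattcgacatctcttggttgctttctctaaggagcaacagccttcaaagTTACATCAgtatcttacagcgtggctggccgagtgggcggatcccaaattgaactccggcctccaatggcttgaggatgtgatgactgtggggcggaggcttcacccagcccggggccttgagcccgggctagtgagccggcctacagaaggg
The motif was held by 1 of the 42 member genes (2.38%) and by 4.51% of 27025 genes in the table. A match of letters is a description and shows no binding.

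The other motifs searched were the site of NRF1, a factor of mitochondrial genes, as GCGCA, any base, then GCGC, and the element of the estrogen-related receptors (ERR), as TNAAGGTCA, each on both strands. NRF1 letters were found in 4 of 42 member genes (9.52%), namely Dld, Hibadh, Pccb and Sucla2, against 5.19% of all genes, and ERR letters in 0 of 42 against 1.43%. The windows of Sucla2 and Pccb are shown as examples among genes that fell, with the NRF1 letters in capitals.
Sucla2, chr14:73552536-73552835, plus strand: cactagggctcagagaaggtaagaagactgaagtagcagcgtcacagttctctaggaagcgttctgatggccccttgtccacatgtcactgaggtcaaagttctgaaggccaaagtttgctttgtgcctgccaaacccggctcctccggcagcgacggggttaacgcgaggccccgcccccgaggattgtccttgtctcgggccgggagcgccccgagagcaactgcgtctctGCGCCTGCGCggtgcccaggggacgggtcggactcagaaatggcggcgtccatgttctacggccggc
Pccb, chr9:101034835-101035134, minus strand: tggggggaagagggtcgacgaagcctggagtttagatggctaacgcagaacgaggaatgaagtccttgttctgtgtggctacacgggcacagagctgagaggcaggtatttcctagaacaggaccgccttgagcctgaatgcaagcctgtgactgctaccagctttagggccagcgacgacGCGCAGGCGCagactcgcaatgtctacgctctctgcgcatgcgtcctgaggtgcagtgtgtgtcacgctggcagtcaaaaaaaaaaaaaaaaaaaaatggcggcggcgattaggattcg
In Sucla2 the match starts 17 bases before the annotated start and in Pccb 69 bases before it.

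Pcx, pyruvate carboxylase, which makes oxaloacetate from pyruvate, was at 23.7, 13.2 and 10.5 CPM in controls and at 13.1, 9.35 and 20.6 CPM in knockouts. The groups overlapped, and its log2 ratio was -0.17 (SE 0.33, adjusted p = 0.713), with a sign that turned without control 1 (0.27) or without knockout 2 (0.07). Control 1 and knockout 3, the highest of their groups for Pcx, were also the libraries with the most Ucp1 of their groups. Ucp1, of brown fat, was at 21.6, 0.778 and 0.116 CPM in controls and at 0.955, 0.465 and 10.8 CPM in knockouts, and the 7 adipocyte markers summed to 15.6 to 65.5 CPM in controls and 11.9 to 91.1 CPM in knockouts, where the smallest adjusted p of the 5 tested was 0.37. Their part in the values of Pcx was not tested. The ratio of Pck2 to Pcx counts was 0.241, 0.496 and 0.5 in controls and 1.85, 2.98 and 1.01 in knockouts.

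**Figure D2:**
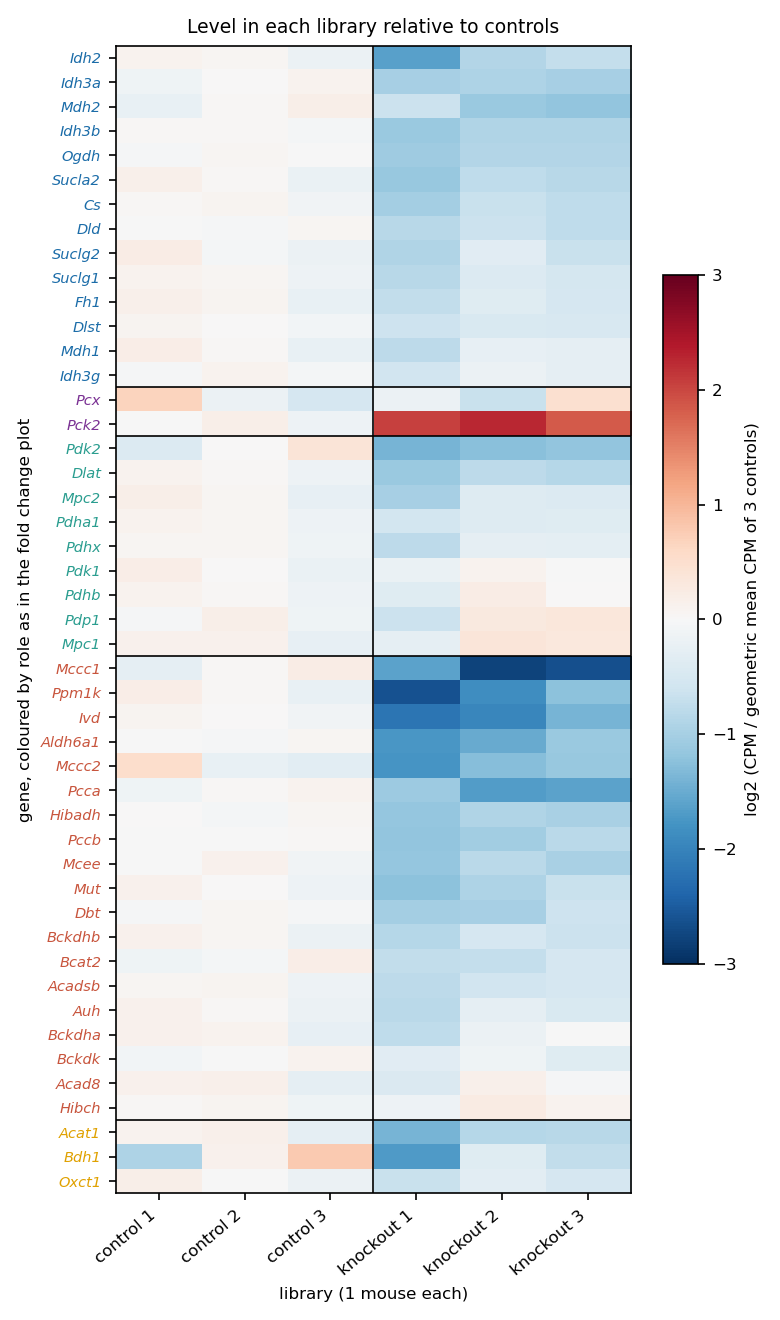
Level of each of the 47 genes (rows, coloured by role) in each of the 6 libraries (columns), as log2 of CPM over the geometric mean of the 3 controls, with blue below and red above. The knockout columns are blue for most rows, Pck2 is red in all 3, and knockout 1 has the lowest level of the 3 knockouts for 41 of 47 genes.

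Pyruvate entry changed in part. Of 9 genes 5 were lower, 0 higher and 4 neither, with a median log2 ratio of -0.43. Over all genes tested, 17.8% were lower and 18.7% higher. The groups did not overlap for 5 of the 9, the 5 called lower, where 24.5% of all genes did not overlap with the knockouts lower. The strongest fall was in Pdk2, a kinase that inactivates pyruvate dehydrogenase, at 70.6, 94.6 and 121 CPM in controls and at 35.2, 39.0 and 41.4 CPM in knockouts, a log2 ratio of -1.31 (SE 0.18, adjusted p = 5.51e-04). Controls differed widely among themselves, yet each was above each knockout. Pdk1, another such kinase, was at 114, 100.3 and 87.0 CPM in controls and at 87.3, 106 and 98.3 CPM in knockouts and was not called, with a log2 ratio of -0.04 (SE 0.14, adjusted p = 0.824). The Pdk2 to Pdk1 count ratio was 0.621, 0.942 and 1.40 in controls and 0.403, 0.366 and 0.421 in knockouts.

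Pdp1, the catalytic subunit of a phosphatase that reactivates the enzyme, was at 26.6, 30.8 and 24.7 CPM in controls and at 17.3, 33.6 and 34.5 CPM in knockouts, with overlapping groups and a log2 ratio of 0.05 (SE 0.23, adjusted p = 0.878). The ratio of Pdk2 to Pdp1 counts was 2.66, 3.07 and 4.91 in controls and 2.03, 1.159 and 1.20 in knockouts, lower in each knockout than in each control. This pair leaves out the phosphatase gene Pdp2, with a log2 ratio of -2.39, and the kinase gene Pdk4, at -1.41. It therefore does not give the balance of kinase and phosphatase genes as a whole.

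The subunits of the pyruvate dehydrogenase complex were not tested against each other. Dlat, the E2 core that carries lipoate, was at 279.6, 269 and 236 CPM in controls and at 120.1, 151 and 144 CPM in knockouts, a log2 ratio of -0.92 (SE 0.13, adjusted p = 7.23e-04). The E1 beta subunit Pdhb was at 282, 269.7 and 238 CPM in controls and at 205, 308 and 266 CPM in knockouts, with overlapping groups, no call and a log2 ratio of -0.02 (SE 0.16, adjusted p = 0.941). The ratio of Dlat to Pdhb counts was nearly the same in the 3 controls, at 0.993, 0.998 and 0.991, and 0.586, 0.490 and 0.541 in the knockouts, a pair also chosen after its values were seen.

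The E1 alpha subunit Pdha1 was at 689.5, 671 and 581 CPM in controls and at 438, 493 and 499 CPM in knockouts, a log2 ratio of -0.44 (SE 0.14, adjusted p = 0.0315). Pdhx, which binds Dld to the core, was at 90.7, 90.7 and 78.8 CPM in controls and at 50.5, 71.4 and 70.9 CPM in knockouts, a log2 ratio of -0.43 (SE 0.15, adjusted p = 0.046). Both calls were small and not stable. That of Pdha1 was lost without control 1, control 2, knockout 2 or knockout 3 (adjusted p up to 0.114) and with no filter on low counts (0.0621). That of Pdhx was lost when any 1 library was left out except knockout 3 (adjusted p up to 0.134), with DESeq2 (0.0645) and in the authors' deposited table (0.0645). The ratio of Pdhb to Pdha1 counts was 0.408, 0.402 and 0.409 in controls and 0.467, 0.625 and 0.533 in knockouts, higher in each knockout.

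The mitochondrial pyruvate carrier is a heterodimer of Mpc1 and Mpc2. Mpc2 was at 126, 116 and 94.1 CPM in controls and at 55.7, 84.5 and 83.2 CPM in knockouts, a log2 ratio of -0.59 (SE 0.18, adjusted p = 0.0271), which lost its call without control 1 or control 2 (adjusted p up to 0.0945). Mpc1 was at 82.1, 82.1 and 62.8 CPM in controls and at 62.8, 96.6 and 94.0 CPM in knockouts and was not called, with a log2 ratio of 0.16 (SE 0.18, adjusted p = 0.527). The ratio of Mpc1 to Mpc2 counts was 0.653, 0.711 and 0.668 in controls and 1.13, 1.14 and 1.13 in knockouts, with little spread inside either group. A processed pseudogene, Mpc1-ps, shares 330 bases at 99.7% identity with Mpc1 and held 34.6% as many counts. Its log2 ratio was 0.32 (adjusted p = 0.258), and Mpc1 with Mpc1-ps added summed to 112.3, 104.2 and 82.6 CPM in controls and 84.8, 133 and 126 CPM in knockouts.

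**Figure D3:**
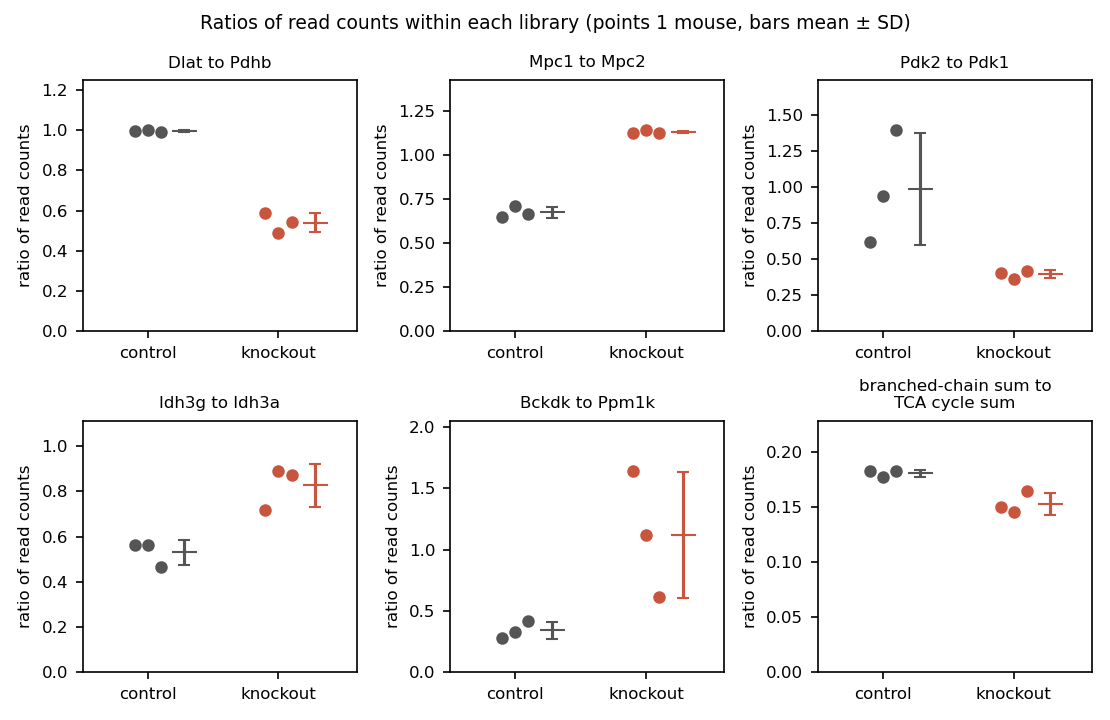
Ratios of read counts within each library for 5 pairs of genes and for the summed branched-chain genes over the summed TCA cycle genes. Each point is 1 mouse and bars are mean ± SD over 3 mice. All but Bckdk to Ppm1k were chosen after the values were seen and none was tested; group means are 0.994 and 0.539 for Dlat to Pdhb, and 0.677 and 1.13 for Mpc1 to Mpc2, in controls and knockouts.

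Branched-chain amino acid breakdown held the largest falls among the 47 genes. Of 19 genes 15 were lower, 0 higher and 4 neither, with a median log2 ratio of -0.93. Over all genes tested, 17.8% were lower and 18.7% higher. The groups did not overlap for 16 of the 19, each with the knockouts lower, where 24.5% of all genes did so. The 5 genes with the most negative values of all 47 belong here.

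The first steps are common to the 3 amino acids. Bcat2, the mitochondrial transaminase, went from 31.6 ± 3.96 to 20.1 ± 1.78 CPM, a log2 ratio of -0.65 (SE 0.13, adjusted p = 0.00381). The branched-chain keto acid dehydrogenase complex comes next, and its subunits were not tested against each other. Its E1 alpha subunit Bckdha was at 78.1, 76.6 and 59.7 CPM in controls and at 42.1, 62.5 and 70.0 CPM in knockouts, with overlapping groups, no call and a log2 ratio of -0.30 (SE 0.19, adjusted p = 0.237). Exons of the gene B3gnt8 on the opposite strand cover 61.7% of the exon length of Bckdha, so reads there cannot be told apart without strand. The same limit holds, over less of the length, for Mpc1 (23.05%), Aldh6a1 (18.6%), Pdha1 (16.2%), Bcat2 (15.9%), Bdh1 (13.7%) and Oxct1 (12.6%). The E1 beta subunit Bckdhb was at 18.9, 18.0 and 15.4 CPM in controls and at 9.55, 12.2 and 11.1 CPM in knockouts, a log2 ratio of -0.68 (SE 0.15, adjusted p = 0.00599). The E2 core Dbt was at 36.6, 39.2 and 36.5 CPM in controls and at 18.4, 18.6 and 24.4 CPM in knockouts, a log2 ratio of -0.87 (SE 0.13, adjusted p = 9.35e-04). The ratio of Bckdhb to Bckdha counts was 0.242, 0.235 and 0.259 in controls and 0.227, 0.195 and 0.159 in knockouts.

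The regulators of this complex gave unequal values. Ppm1k, the phosphatase that activates it, was at 123, 109 and 92.0 CPM in controls and at 17.5, 29.4 and 45.7 CPM in knockouts, a log2 ratio of -1.82 (SE 0.29, adjusted p = 0.00105). Bckdk, the kinase that inactivates it, was at 34.1, 35.8 and 38.7 CPM in controls and at 28.6, 32.9 and 28.02 CPM in knockouts and was not called, with a log2 ratio of -0.28 (SE 0.11, adjusted p = 0.0855). The ratio of Bckdk to Ppm1k counts was 0.277, 0.327 and 0.42 in controls and 1.64, 1.12 and 0.613 in knockouts, with a wide spread among knockouts and knockout 1 highest. In controls the phosphatase held more counts than the kinase in each library, and in knockouts 1 and 2 the kinase held more. These counts are not corrected for exon length, 6022 bases for Ppm1k and 3695 for Bckdk, so where the order turns depends on length.

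The leucine branch held the most negative value of the 47 genes. Ivd, isovaleryl-CoA dehydrogenase, was at 175, 167 and 154 CPM in controls and at 36.1, 42.9 and 63.2 CPM in knockouts, a log2 ratio of -1.81 (SE 0.19, adjusted p = 1.26e-04). Methylcrotonyl-CoA carboxylase follows, with the biotin-carrying subunit Mccc1 at 36.8, 45.6 and 52.2 CPM in controls and at 14.7, 6.45 and 7.09 CPM in knockouts, a log2 ratio of -2.23 (SE 0.28, adjusted p = 3.17e-04). Its partner Mccc2 was at 51.8, 30.9 and 28.8 CPM in controls and at 10.5, 14.9 and 16.4 CPM in knockouts, a log2 ratio of -1.43 (SE 0.24, adjusted p = 0.00154). Both subunits were lower in each knockout than in each control, but they ranked the libraries differently. For Mccc1, knockouts 2 and 3 were lowest, and for Mccc2 knockout 1 was lowest and control 1 stood above the other controls. Their count ratio overlapped between groups, at 0.711, 1.47 and 1.81 in controls and 1.41, 0.434 and 0.431 in knockouts. Auh, the hydratase of the next step, fell by 0.50 (SE 0.15, adjusted p = 0.0273), which lost its call without control 1, control 2 or knockout 3 (adjusted p up to 0.0943).

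The valine and isoleucine branches were mixed. Acadsb, the dehydrogenase of the isoleucine branch, went from 74.9 ± 6.68 to 48.7 ± 4.88 CPM, a log2 ratio of -0.62 (SE 0.12, adjusted p = 0.00354). The valine counterpart Acad8 was at 22.6, 23.1 and 17.3 CPM in controls and at 15.4, 23.3 and 20.2 CPM in knockouts, and Hibch, the hydrolase further along that branch, at 44.2, 45.6 and 39.7 CPM in controls and at 38.6, 51.2 and 46.4 CPM in knockouts. Neither was called, with log2 ratios of -0.10 (SE 0.18, adjusted p = 0.684) and 0.07 (SE 0.13, adjusted p = 0.697). The next valine steps did fall. Hibadh, the hydroxyisobutyrate dehydrogenase, was at 100.4, 96.3 and 104 CPM in controls and at 45.0, 53.7 and 50.8 CPM in knockouts, a log2 ratio of -1.01 (SE 0.11, adjusted p = 1.75e-04). Aldh6a1, the methylmalonate semialdehyde dehydrogenase, was at 105, 103.01 and 110.0 CPM in controls and at 31.6, 36.9 and 48.6 CPM in knockouts, a log2 ratio of -1.44 (SE 0.16, adjusted p = 1.42e-04). For both, the 3 controls were within a narrow band and the knockouts far below it.

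Propionyl-CoA from valine and isoleucine is carboxylated and rearranged to succinyl-CoA, and each of the 4 genes of this route fell. Pcca, the biotin-carrying subunit of propionyl-CoA carboxylase, was at 29.0, 32.7 and 34.5 CPM in controls and at 14.9, 10.04 and 10.5 CPM in knockouts, a log2 ratio of -1.43 (SE 0.17, adjusted p = 2.07e-04). Pccb, the other subunit, was at 44.6, 44.7 and 46.3 CPM in controls and at 20.1, 22.1 and 25.8 CPM in knockouts, a log2 ratio of -1.001 (SE 0.12, adjusted p = 2.52e-04). Knockout 1 was the highest knockout for Pcca and the lowest for Pccb, and the Pcca to Pccb ratio overlapped between groups, at 0.651, 0.731 and 0.744 in controls and 0.743, 0.455 and 0.409 in knockouts. The epimerase gene Mcee fell by 0.98 (SE 0.14, adjusted p = 6.41e-04) and Mut, methylmalonyl-CoA mutase, by 0.93 (SE 0.15, adjusted p = 0.00141).

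Of the 3 ketone body genes 2 were called lower, where 17.8% of all genes tested were. Acat1, the thiolase that splits acetoacetyl-CoA and also ends isoleucine breakdown, was at 269, 275 and 208 CPM in controls and at 94.99, 138 and 139.8 CPM in knockouts, a log2 ratio of -1.02 (SE 0.18, adjusted p = 0.00187). Oxct1, the transferase that activates acetoacetate, was at 867, 760.0 and 671 CPM in controls and at 479.8, 611 and 537 CPM in knockouts, a log2 ratio of -0.50 (SE 0.16, adjusted p = 0.0326). That call was lost without control 1, control 2 or knockout 3 (adjusted p up to 0.095). Bdh1, which converts hydroxybutyrate to acetoacetate, was at 7.07, 14.8 and 23.2 CPM in controls and at 4.14, 10.5 and 8.05 CPM in knockouts, and its groups overlapped. Its log2 ratio was -0.98 (SE 0.42, adjusted p = 0.091), not called, although it passed when control 1 was left out (-1.34) or when genes of low count were kept in (adjusted p = 3.95e-06). That last fit gave a far smaller adjusted p for Pck2 too, 7.34e-30 against 2.39e-05 in the main fit. In the authors' deposited table (DESeq2) the adjusted p of Bdh1 was 0.24, and with 1 library left out it reached up to 0.376 in edgeR.

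Set side by side, 17 of 25 TCA cycle, oxaloacetate exchange and pyruvate genes were lower, with a median of -0.59, and 17 of 22 branched-chain and ketone genes, with a median of -0.95. The median of all genes tested was -0.01, and 17.8% of them were called lower. A fall of more than 1 on the log2 scale was called for 2 of the former, Idh2 and Pdk2, and for 9 of the latter, and for 7.27% of all genes. Several members lie at that limit, and the counts are 1 and 6 with DESeq2 and in the authors' deposited table, and 0 and 3 with library size alone, where 2.14% of all genes pass. Whether the sets differ was not tested. Summed counts of the branched-chain and ketone genes over those of the other set were 0.283, 0.269 and 0.268 in controls and 0.248, 0.25 and 0.253 in knockouts. Without ketone, oxaloacetate exchange and pyruvate genes, the branched-chain sum over the TCA cycle sum was 0.182, 0.177 and 0.182 in controls and 0.15, 0.145 and 0.164 in knockouts. Both ratios were lower in each knockout than in each control. Such sums weigh abundant genes most. In control 1, Oxct1 held 11521 counts of the branched-chain and ketone set, and Ogdh 15599 and Mdh1 14636 of the other set.

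Per kilobase of exon the sets also differ in level. In controls the TCA cycle, oxaloacetate exchange and pyruvate genes had a median of 56.6 CPM per kilobase and the branched-chain and ketone genes a median of 10.8. The highest levels were those of Mdh1 at 377 ± 54.5, Idh2 at 275 ± 28.1, Ogdh at 222 ± 7.33 and Oxct1 at 207 ± 26.5 (SD, n = 3), where Ogdh and Oxct1 lie within their spread of each other. Among branched-chain genes Bckdha was highest, at 37.6 ± 5.37, and Auh lowest, at 3.31 ± 0.352. Such ranks depend on the length used, the union of all annotated exons. Auh had 31.7 CPM in controls over 9580 bases, and Bckdhb 17.4 CPM over 1805 bases. Ivd stood at 30.1 ± 1.88 in controls, close to Pdk2 at 30.2 ± 8.06, and at 8.61 ± 2.56 in knockouts.

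**Figure D4:**
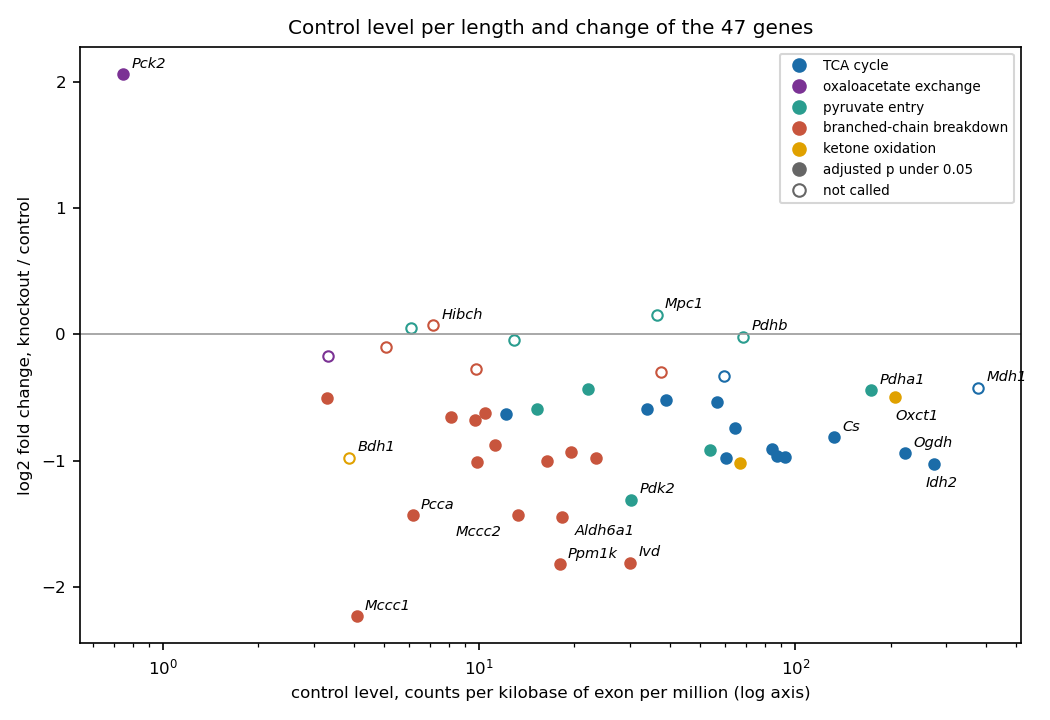
Control level of each of the 47 genes, in CPM per kilobase of exon on a log axis, against its log2 ratio, coloured by role and filled where the adjusted p was under 0.05. Pck2 has the lowest control level (0.747) and the only called rise, and the 5 most negative values, from Mccc1 to Mccc2, belong to branched-chain genes with control levels from 4.09 to 30.1.

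Other genes of these pathways, 49 from a list, gave 46 tested, of which 19 were lower and 4 higher (9 lower and 18 higher with library size alone). The shares over all genes tested were 17.8% lower and 18.7% higher, and 3.86% and 56.6% with library size alone. Among other TCA cycle and malate genes 6 of 12 were lower and 1 higher. Ogdhl, a paralog of Ogdh, was at 65.6, 87.0 and 101 CPM in controls and at 9.55, 11.7 and 13.2 CPM in knockouts, a log2 ratio of -2.89 (SE 0.19, adjusted p = 9.48e-06). The succinate dehydrogenase subunit Sdha fell by 0.91 (adjusted p = 7.15e-04) and the mitochondrial malic enzyme Me3 by 0.76 (adjusted p = 0.00192). Me2, another mitochondrial malic enzyme, named after its value was seen as the 1 that rose, was at 6.09, 6.33 and 5.34 CPM in controls and at 9.92, 11.5 and 10.1 CPM in knockouts, a log2 ratio of 0.83 (SE 0.15, adjusted p = 0.0026).

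Among other pyruvate genes 5 of 7 tested were lower and 0 higher, where 17.8% of all genes tested were lower and 18.7% higher. Pdp2, the other catalytic phosphatase subunit, was at 22.4, 31.1 and 27.4 CPM in controls and at 4.40, 4.82 and 6.36 CPM in knockouts, a log2 ratio of -2.39 (SE 0.19, adjusted p = 2.08e-05), while Pdp1 was not called. Pdk4, a kinase induced by fasting and fatty acids, was at 577, 682 and 898 CPM in controls and at 314, 224 and 274 CPM in knockouts, a log2 ratio of -1.41 (SE 0.20, adjusted p = 5.36e-04). Pdpr, the regulatory phosphatase subunit, fell by 0.85 (adjusted p = 7.53e-04). Kinase and phosphatase genes of pyruvate dehydrogenase were thus both among those that fell.

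Other branched-chain genes had 3 of 10 lower and 2 higher, where 17.8% of all genes tested were lower and 18.7% higher. The count of those higher is thus near the share over all genes. Bcat1, the cytosolic transaminase, was at 3.91, 2.67 and 2.44 CPM in controls and at 8.81, 7.14 and 5.96 CPM in knockouts, a log2 ratio of 1.26 (SE 0.24, adjusted p = 0.0029), opposite in sign to Bcat2. Slc25a44, the mitochondrial carrier of branched-chain amino acids, was at 15.3, 13.7 and 12.3 CPM in controls and at 22.5, 19.8 and 19.2 CPM in knockouts, a log2 ratio of 0.57 (SE 0.14, adjusted p = 0.00946). Mmab, which prepares the cobalamin cofactor of the mutase, fell by 0.80 (adjusted p = 0.00684). Of 4 lipoate genes 1 was called higher, the lipoate synthase Lias at 0.37 (adjusted p = 0.0315). That call was lost when any 1 library was left out except knockout 1, with DESeq2 and in the authors' deposited table. Of 4 tested genes of ketone body use outside mitochondria, ketone body synthesis and monocarboxylate transport, the smallest adjusted p was that of Aacs, acetoacetyl-CoA synthetase, at 0.068 with a log2 ratio of 0.59.

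Of 9 regulators 5 were lower and 0 higher, where 17.8% of all genes tested were called lower and 18.7% higher. Klf15, a transcription factor known to act on branched-chain breakdown genes in muscle and heart, was at 42.9, 36.8 and 30.8 CPM in controls and at 13.2, 11.4 and 15.5 CPM in knockouts, a log2 ratio of -1.47 (SE 0.16, adjusted p = 1.44e-04). Ppara, a nuclear receptor of fuel oxidation genes, fell by 1.55 (adjusted p = 1.63e-04), and the coactivator Ppargc1b by 1.22 (adjusted p = 6.66e-04). These 3 calls, those with the smallest adjusted p of the 9, held in all 15 alternative settings. The most negative value was that of another coactivator, Ppargc1a, at -1.96 (adjusted p = 0.00315). Of the ERR genes, Esrrb fell by 0.83, and Esrra (0.003) and Esrrg (-0.14) were not called.

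Cell type markers moved with the 47 genes in part. Of 10 cardiomyocyte markers 5 were lower, 1, Myh7, was higher and 4 were not called, where 17.8% of all genes tested were lower and 18.7% higher. Their sum was 100118 to 102495 CPM in controls and 66812 to 68647 CPM in knockouts. Ttn and Myh6 held most of these sums, with control means of 54475 and 19271 CPM. The log2 ratio was -0.31 for Ttn, not called, and -1.32 for Myh6. The 10 markers had a median log2 ratio of -0.55, or 0.15 with library size alone. Knockout 1, where most of the 47 genes were lowest, had a median marker level of -0.83 relative to controls on the log2 scale, against -0.49 and -0.51 in knockouts 2 and 3. The same medians over the 47 genes were -0.85, -0.63 and -0.64. Without knockout 1 the 47 genes had 33 lower and 1 higher.

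Of the other markers, 5 of 10 endothelial genes were lower and 0 higher, and fibroblast and macrophage genes had 0 lower with 1 and 2 of 10 higher. Over all genes tested, 17.8% were called lower and 18.7% higher. The fibroblast, macrophage and erythroid counts called higher are near or below that share. Endothelial markers summed to 711 to 807 CPM in controls and 505 to 632 CPM in knockouts, and fibroblast markers to 669 to 951 and 850.1 to 1377 CPM. Macrophage markers summed to 207 to 229 and 222 to 269 CPM. Smooth muscle and pericyte genes had 3 of 9 lower and 1 higher, and their sums, 1148 to 1412 CPM in controls and 699.8 to 728 CPM in knockouts, did not overlap. The 3 called lower, Rgs5, Abcc9 and Acta2, held most of these sums, with control means of 416, 332 and 299 CPM. The 1 called higher was Cnn1, at a log2 ratio of 1.41 (adjusted p = 0.00579), and Tagln (0.57) and Myh11 (-0.33) were not called. Of 7 erythroid genes 1 was called higher and all 7 had positive values (median 0.71), with sums of 526 to 1809 CPM in controls and 1452 to 2960.3 CPM in knockouts. Hepatocyte markers were near 0, with Alb, Fgb and Serpina1a at 0 counts in all 6 libraries, and 5 skeletal muscle markers summed to at most 0.813 CPM. The part of these cell types in the results was not tested.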

How the data were processed

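Total RNA of whole hearts from 3 control and 3 knockout mice was sequenced from both ends, after preparation by TruSeq (per the labels). Sample titles gave the groups. The series design mentions technical replicates; a single count column was used for each mouse. The submitters' processing notes name, with no roles, mm10, DESeq2 1.16.1, featureCounts 1.5.1, HISAT2 2.0.5 and SAMtools 1.5. The authors deposited whole-number counts per gene, not normalised. The sources used here do not give the strand setting of the counting. The authors' deposited table of their comparison holds a log2 fold change, a test statistic (a score), a p-value and a mean normalised signal per gene, and it served as an alternative. The deposited normalised values were not used here.

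Knockouts were compared with controls in R 4.3.3 by edgeR 4.0.16 (quasi-likelihood F-test) after TMM scaling, with filterByExpr (minimum count 10), no block and Benjamini-Hochberg adjustment over all genes, called under 0.05. SE is the absolute log2 ratio over the square root of F. The test was tried on simulated data first. Exon lengths and overlaps came from GENCODE M21 (the mm10 build), the lengths as the union of all exons of a gene, and copies from blastn at 95% identity over at least 300 bases. Alternatives were RLE, library size alone, TMM without mitochondrial-encoded features, no filter, 50 counts in 3 libraries, DESeq2 1.42.0, limma-voom (limma 3.58.1), the authors' table, a replicate block and each library left out.

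Members and lists were chosen with earlier results of these data known. The rule for named genes takes all 47 members, with values by library for the 3 of each role with the smallest adjusted p, for compared subunits and for members called higher, and up to 3 called genes of each further list. Of the count ratios, those of Sucla2 to Suclg2, Pdk2 to Pdp1, Bckdk to Ppm1k, Pck2 to Pcx and of the 2 sets came from that rule, and the others were chosen after the values were seen. No pair of libraries within a group agreed within sampling noise (chi-square per degree of freedom at least 8.93), and each counts as 1 replicate.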

Additional observations from a re-analysis of the deposited data

How the results depend on the processing

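Of the 35 called members, 28 kept their call whichever library was left out, and 8 kept it in all 15 settings, namely Pck2, Pdk2, Ppm1k, Ivd, Mccc1, Mccc2, Aldh6a1 and Pcca. Leaving out 1 library gave 3694 to 5837 genes changed, 28 to 33 members lower and 1 higher, 12 to 16 of the TCA cycle, oxaloacetate exchange and pyruvate set lower (median -0.67 to -0.47) and 15 to 17 of the branched-chain and ketone set (median -1.01 to -0.80). Other pathway genes were lower for 16 to 20 and higher for 3 to 5. Falls of more than 1 were called for 1 to 3 of the former set and 6 to 11 of the latter.

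Library size alone gave 8645 genes changed, 7 members lower and 7 higher. It gave 1 lower in the TCA cycle, oxaloacetate exchange and pyruvate set (median 0.10) and 6 in the branched-chain and ketone set (median -0.24), and 9 lower and 18 higher of the other pathway genes. Falls of more than 1 numbered 0 and 3 in the sets, and 1 in the former with no filter, DESeq2 or the authors' table. Against the median of all genes under the same setting, 0.68, these sets stood at -0.58 and -0.92, as against -0.57 and -0.94 with TMM. Such distances are kept by construction, since the scaling moves all genes by nearly the same amount. Signs turned with library size alone for Idh3g (0.37), Dlst (0.17), Suclg1 (0.10), Suclg2 (0.047), Fh1 (0.14), Mdh1 (0.25), Pcx (0.48), Pdha1 (0.25), Pdhb (0.67), Pdhx (0.25), Pdk1 (0.63), Mpc2 (0.088), Bcat2 (0.052), Bckdha (0.38), Bckdhb (0.0088), Bckdk (0.43), Acadsb (0.065), Acad8 (0.58), Auh (0.18), Oxct1 (0.18).

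Members near 0 turned sign elsewhere too: Pdhb with no filter (0.028) and with DESeq2 or the authors' table (0.011), Pdk1 with no filter (0.0022), and Pdp1 with limma-voom (-0.014) and the replicate block (-0.0049). With 1 library left out, values ran from -0.51 to 0.27 for Pcx, -0.16 to 0.13 for Pdhb, -0.13 to 0.059 for Pdk1, -0.10 to 0.32 for Pdp1, -0.24 to 0.051 for Acad8 and -0.023 to 0.18 for Hibch. The cause was not tested for these.

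The replicate block gave 4293 genes changed, 31 members lower and 1 higher, and medians of -0.59 and -0.94 for the sets; it lost the calls of Pdha1, Pdhx, Mpc2, Oxct1 and Lias and called Bdh1 lower. The labels do not say that equal numbers pair mice, and the correlation of deviations from the group means was -0.198, 0.0851 and -0.0871 for libraries of equal number, so the block is given here as an alternative only. With 3 mice per group, a value that was not called does not show that a gene was unaltered.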
